A study of Mus musculus with 4 samples.

Results

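InjuredPT-A, the proximal tubule cluster described as severely injured, was cluster 6 of 23 clusters in a single nucleus RNA sequencing (snRNA-seq) study of mouse kidney cortex. Its members were the 2 columns of the deposited table that hold this cluster in the 2 mice given aristolochic acid I (AAI), of 92 columns in all, chosen by the cluster number in the column name and by no expression value. Cluster names followed the order of the marker sheets supplied with the study. The study held 4 male mice of mixed strain, 1 for each condition. Control mice had the genotype TRE-hKLF6, and h*KLF6*-OE mice had the genotype CAG-rtTA,TRE-hKLF6, in which the CAG promoter drives rtTA in the whole animal, so that the transgene was not limited to the tubule. All 4 mice, controls included, were fed doxycycline at 200 mg/kg of diet for 1 week. The control AAI and the h*KLF6*-OE AAI mouse each had a single injection of AAI at 2 mg/kg and were killed 24 hours later. With 1 mouse for each condition no test between conditions was possible, and genotype and mouse cannot be told apart.

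The proximal tubule reabsorbs most of the glucose, amino acids, phosphate, bicarbonate and filtered protein that pass the glomerulus, makes glucose, and secretes organic anions, and it depends on mitochondria and peroxisomes that burn fatty acids. Its early segments, S1 and S2, carry most of the sodium-coupled uptake, while the late segment, S3, is rich in detoxifying enzymes. AAI enters these cells through organic anion transporters, and its activated metabolites bind DNA and block both replication and transcription. Severely injured tubule cells in kidney disease are known for the loss of transporter genes and the gain of stress genes.

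Each value is a mean of normalized expression, taken for 1 gene across the nuclei that 1 mouse gave to 1 cluster, on a scale where a column sums to 10000. The numbers of nuclei and reads behind a column were not given with it, and no error can be put on a single value. A difference is given as log2(value + 1) in InjuredPT-A minus log2(value + 1) in the plain average of the 5 clusters of normal proximal tubule (PT-S3-1, PT-S1-S2-1, PT-S1-S2-2, PT-S3-2 and PT-S3-3, clusters 0 to 4) of the same mouse, which understates the change of genes with low values. A gene was tested when it reached 0.5 in InjuredPT-A or in that mean in both AAI mice, and it was called higher or lower when the difference was at least 0.5 in the same direction in both. Because the clusters were built from the expression of these genes, a difference between clusters is a description of the cluster and not a test.

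The label was first checked against the cell type markers. Of 10 proximal tubule markers, 9 in the control AAI mouse and 8 in the h*KLF6*-OE AAI mouse had a lower value in InjuredPT-A than in the mean of the normal clusters. All 10 were above the median of the 16 clusters outside the proximal tubule in both mice, but 0 in the control AAI mouse and 1 in the h*KLF6*-OE AAI mouse were above every one of those clusters. The summed level of the 10 markers was 154 in the control AAI mouse, against 123 to 210 in the normal clusters and 173 in the mesangial cell cluster (MC), and 158 in the h*KLF6*-OE AAI mouse, against 103 to 176 and 188. Proximal tubule transcripts were thus present in clusters of other cell types as well, and the summed level did not set InjuredPT-A apart from them. Most of the sum came from *Kap*, an androgen-responsive kidney protein, at 110 and 101 in InjuredPT-A.

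Markers of other nephron segments were also read. The thick ascending limb list summed to 13.9 in the control AAI and 18.6 in the h*KLF6*-OE AAI mouse, above the normal clusters (6.40 to 11.97 and 6.25 to 10.4) and far below the ascending limb cluster LH-AL-1 (369 and 366). Its defining member *Slc12a1*, the furosemide-sensitive cotransporter, stood at 2.66 and 4.41, and *Cldn16* at 0 and 0.0126. The distal convoluted tubule list summed to 10.2 and 13.5, against 6.35 to 9.34 and 7.55 to 10.4 in the normal clusters. Collecting duct markers summed to 1.49 and 1.81, against 0.481 to 1.43 and 0.384 to 0.984, and those of mesangial cells, fibroblasts and smooth muscle to 0.308 and 0.314, against 0.0536 to 0.189 and 0.0227 to 0.151, with all 9 members of each list under 0.5. Podocyte, endothelial and leukocyte sums lay within the normal range. The part of these transcripts in the results was not tested. Genes listed at 0 made up 22.5% and 22.2% of the column in the 2 mice, against up to 31.3% and 30.4% in the normal clusters. Mitochondrially encoded transcripts were higher than in the normal clusters, at 1.84% and 2.34% against 0.838% to 1.59% and 0.626% to 1.43%, and so were ribosomal protein transcripts, at 0.628% and 0.641% against 0.211% to 0.401% and 0.184% to 0.322%.

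The 4 genes that mark the cluster were read across all clusters of each AAI mouse. *Polr2a*, which encodes RPB1, the catalytic subunit of RNA polymerase II, lies on chromosome 11 at 69733997 to 69758637 of GRCm38 on the minus strand and had a value of 24.3 in the control AAI and 23.3 in the h*KLF6*-OE AAI mouse. The 5 normal clusters held 1.53 to 2.10 and 1.41 to 2.01, and the next highest of all clusters was MC at 5.39 and 4.44. *Klf6*, the Krüppel-like transcription factor whose human copy the transgene carries, lies on chromosome 13 at 5861482 to 5870394 on the plus strand and stood at 7.46 and 6.68, against at most 0.535 and 0.468 in the normal clusters. The 2 mice were close to each other in both genes, and InjuredPT-A did not overlap any other cluster. Reads were aligned to a mouse reference, so the *Klf6* value is that of reads assigned to the mouse gene. Whether reads of the human transgene were among them was not tested, and the level of the transgene was not read separately.

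*Cdkn1a*, the cell cycle inhibitor p21 and a target of p53, lies on chromosome 17 at 29090976 to 29100727 on the plus strand and had a value of 4.83 in the control AAI and 9.31 in the h*KLF6*-OE AAI mouse. The normal clusters held at most 0.570 and 0.615. *Trp53inp1*, a p53-induced nuclear protein gene, lies on chromosome 4 at 11156431 to 11174379 on the plus strand and stood at 14.9 and 11.13, against 1.47 to 3.52 and 1.11 to 3.15. All 4 genes ranked first of 23 clusters in both AAI mice. For *Trp53inp1* the next cluster was InjuredPT-B, the other injured proximal tubule cluster, at 5.25 in both mice. In the uninjured mice, where few nuclei carry this cluster number, *Polr2a* was 1.90 and 0.817, *Klf6* 0.358 and 0.250, *Cdkn1a* 0 and 0.144, and *Trp53inp1* 0.151 and 0.260.

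**Figure D1:**
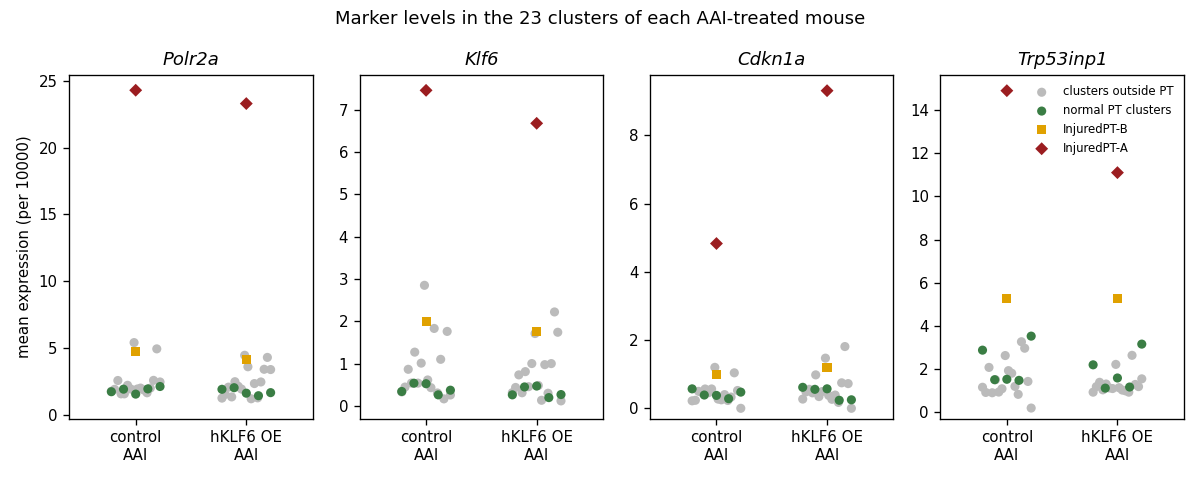
Mean normalized expression per 10000 of *Polr2a*, *Klf6*, *Cdkn1a* and *Trp53inp1* in the 23 clusters of the control AAI and the h*KLF6*-OE AAI mouse. The red diamond (InjuredPT-A) is the highest point for each gene in each mouse, above InjuredPT-B (yellow square), the 5 normal proximal tubule clusters (green) and the other clusters (grey).

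The promoters of *Polr2a* and *Klf6* are shown because these are the markers with the largest differences from normal proximal tubule, by the smaller of the 2 mice's values. They are the 250 bases before the RefSeq start (GRCm38.p6), 5′ to 3′ on the strand of the gene, at chr11:69758634-69758883 for *Polr2a* and chr13:5861239-5861488 for *Klf6*, with a match to a searched motif in capitals. The motifs were TGACTCA (AP-1), TGACGTCA (CRE), GGGCGTGG (a KLF or EGR-like GC box) and CACGTG (E-box), each on both strands, and 4.46%, 1.55%, 4.79% and 6.02% of 32851 promoter windows of this length held them.
Polr2a: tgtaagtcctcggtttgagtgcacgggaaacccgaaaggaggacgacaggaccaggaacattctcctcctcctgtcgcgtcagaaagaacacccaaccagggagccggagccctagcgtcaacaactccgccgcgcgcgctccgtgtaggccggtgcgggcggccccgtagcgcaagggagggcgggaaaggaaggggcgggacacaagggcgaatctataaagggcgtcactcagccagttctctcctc
Klf6: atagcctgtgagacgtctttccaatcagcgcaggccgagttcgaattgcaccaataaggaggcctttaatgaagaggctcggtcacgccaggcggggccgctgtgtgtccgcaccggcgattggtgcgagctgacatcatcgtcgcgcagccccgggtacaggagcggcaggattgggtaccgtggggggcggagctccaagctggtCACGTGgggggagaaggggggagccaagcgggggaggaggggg
The *Klf6* window held 1 match, an E-box 43 bases before the start, and none of the 4 motifs was found in the *Polr2a* window. Both were rich in G and C, at 62.8% for *Polr2a* and 64.8% for *Klf6*. A match of letters is not a binding site, and no match says only that these letters are not in the window. Other forms of the GC box were not searched. The study itself reports a KLF6-binding site in open chromatin at the *Polr2a* promoter, which this search does not address.

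Likeness to the normal segments was read from Pearson's r of log2(value + 1) across genes, as a description across genes that share a library. In the control AAI mouse (5888 genes) the normal cluster nearest to InjuredPT-A was PT-S3-3, with an r of 0.590, followed by PT-S3-1 at 0.587, both S1-S2 clusters at 0.545 and PT-S3-2 at 0.509. In the h*KLF6*-OE AAI mouse (5771 genes) it was PT-S3-1, with an r of 0.609. The order was not stable, since in the control AAI mouse PT-S3-1 came first with a pseudocount of 0.1 (0.546), on the segment genes alone (0.823 over 81 genes) or against the uninjured mouse (0.533). In the h*KLF6*-OE mouse PT-S1-S2-2 came first against the uninjured mouse (0.580). With a pseudocount of 0.1 and on the segment genes PT-S3-1 was the nearest in both mice (0.564 and 0.779 in the h*KLF6*-OE AAI mouse), and otherwise the nearest cluster differed between them.

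The distance to every normal cluster was large beside the distances among them. The 5 normal clusters correlated with each other at 0.778 to 0.972 in the control AAI and 0.776 to 0.977 in the h*KLF6*-OE AAI mouse, and InjuredPT-B with them at 0.831 to 0.939 and 0.820 to 0.918. InjuredPT-A was nearer to 2 clusters that are not normal proximal tubule, InjuredPT-B (0.730 and 0.693) and MC (0.667 and 0.706). Genes that reached the minimum only in other clusters, such as MC, were left out of r. MC also had high shares of mitochondrially encoded (2.90% and 3.00%) and ribosomal protein transcripts (0.694% and 0.719%). The part of these in its likeness was not tested. The cluster named EC-1 (0.589 and 0.608) was as near as the nearest normal cluster. EC-1 held the highest values outside the proximal tubule of *Slc34a1* (24.2 and 24.5) and *Cubn* (5.93 and 4.87). The 7 endothelial markers were instead highest in EC-2. The part of tubule transcripts in the likeness to EC-1 was not tested. Between the mice, InjuredPT-A correlated with itself at 0.923 over 5253 genes.

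**Figure D2:**
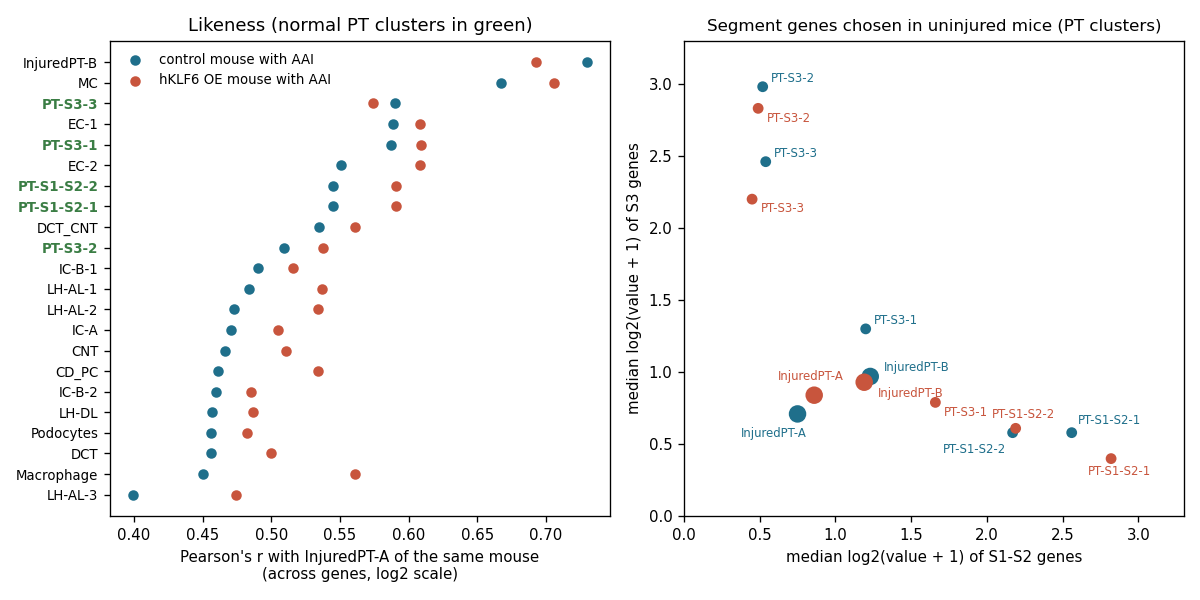
Left, Pearson's r across genes between InjuredPT-A and each of the other 22 clusters of the same mouse (control AAI blue, h*KLF6*-OE AAI red), with the names of the normal proximal tubule clusters in green. Right, median log2(value + 1) of the S1-S2 genes (horizontal) and of the S3 genes (vertical) in each proximal tubule cluster, where InjuredPT-A lies low on both axes (0.75 and 0.71 in the control AAI mouse, 0.86 and 0.84 in the h*KLF6*-OE AAI mouse).

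Segment identity was then read from genes chosen in the uninjured mice only, where 39 were higher in the S1-S2 clusters and 42 in the S3 clusters by a log2 difference of at least 1 in both genotypes. Both groups were low in InjuredPT-A. All 39 S1-S2 genes and 38 of 42 S3 genes were lower by at least 0.5 than in the normal clusters of their own segment in both AAI mice, and 0 were higher. The median S1-S2 gene held 11.7% of its own segment's value in the control AAI and 16.4% in the h*KLF6*-OE AAI mouse, and the median S3 gene 16.9% and 17.6%. On the log2 scale the median difference was −1.80 and −1.56 for S1-S2 genes and −1.59 and −1.23 for S3 genes.

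The low levels of both groups gave InjuredPT-A no clear segment. S1-S2 genes stood above the mean of the normal S3 clusters in 14 of 39 cases in the control AAI and 13 in the h*KLF6*-OE AAI mouse. S3 genes stood above the mean of the normal S1-S2 clusters in 27 and 31 of 42. The S3 mean includes PT-S3-1, where the median S1-S2 gene stood at 1.20 and 1.66 on the log2 scale and the median S3 gene at 1.30 and 0.79. In PT-S3-2 the median S1-S2 gene stood at 0.52 and 0.49, and in PT-S3-3 at 0.54 and 0.45. These are below the 0.75 and 0.86 of InjuredPT-A. *Slc5a12*, the sodium-coupled lactate transporter of the early tubule, had a value of 4.12 and 5.14 in InjuredPT-A. Its mean was 64.1 and 44.9 over the normal S1-S2 clusters and 4.38 and 9.64 over the normal S3 clusters. *Slc7a13*, an aspartate and glutamate transporter of S3, stood at 6.08 and 6.28, against 20.1 and 14.6 in its own segment and 1.75 and 1.47 in S1-S2. The early gene was thus below the mean of the normal S3 clusters, but above the lowest normal cluster (1.80 and 1.79). The late gene was between the means of both segments.

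Segment genes differed in how much was kept. *Gldc*, the glycine decarboxylase of S1-S2, was down to 0.630 in the control AAI and 1.34 in the h*KLF6*-OE AAI mouse, or 5.29% and 13.3% of its segment, and *Cyp7b1*, the oxysterol hydroxylase of S3, to 0.763 and 2.18, or 3.86% and 9.50%. *Nox4*, the NADPH oxidase of the tubule, was at 4.74 against 42.3 and 6.52 against 39.7. Among the most reduced were also *Tmem108* (4.27% and 13.8%), *4921539H07Rik* (4.21% and 6.85%) and *Dkk2*, a Wnt inhibitor (1.72% and 6.18%). At the other end were *Mat2a*, which makes S-adenosylmethionine, at 52.5% and 53.3% of S3, *Gclc*, the rate-limiting enzyme of glutathione synthesis, at 51.3% and 43.2%, *Slc6a18*, a neutral amino acid transporter, at 47.4% and 45.1%, and in S1-S2 the amino acid transporter genes *Slc43a2* (31.5% and 25.0%) and *Slc6a19* (25.4% and 31.1%).

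A wider set of 198 proximal tubule genes, higher in the normal clusters than in the median of the 16 other clusters of both uninjured mice and chosen after the data were seen, gave the same kind of picture. The median gene held 27.2% of its normal level in the control AAI and 29.2% in the h*KLF6*-OE AAI mouse, with a range of 4.49% to 382% and 5.89% to 256%. In both mice 70 genes were under 25%, 21 were at or under the median of the clusters outside the proximal tubule, and 9 were above every such cluster. The most reduced with a high normal level was *Gramd1b*, which moves cholesterol between membranes, at 2.68 against 33.7 in the control AAI and 3.66 against 44.6 in the h*KLF6*-OE AAI mouse. The 4 genes at or above normal in both mice were *Cdcp1*, a transmembrane Src substrate (6.23 against 1.63, and 3.21 against 1.25), *Gm20400* (5.70 against 3.58, and 3.19 against 2.05), *Ankrd33b* (127% and 104%) and *Clic4*, an intracellular chloride channel protein (121% and 102%). *Mat2a* was again among the better kept, at 10.5 against 14.1 and 9.59 against 12.5.

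Across all genes tested, 992 of 5008 were higher in InjuredPT-A than in the normal clusters in both AAI mice (19.8%), 734 were lower (14.7%), and 0 were called in opposite directions. The differences of the 2 mice correlated at 0.944 across genes. In 1 mouse alone, 1460 of 5479 were higher and 874 lower in the control AAI mouse, and the h*KLF6*-OE AAI mouse had 1288 higher and 885 lower of 5337. The median tested gene was itself higher by 0.19 and 0.15, and with the differences centred on that median the split turned to 555 higher and 1081 lower, so list medians below are to be read beside it. InjuredPT-B, compared with the same normal clusters, had 107 higher and 208 lower genes among 4148.

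The called genes also had a place among all 23 clusters. Of the 992 higher genes, 646 (65.1%) had their highest value of all clusters in InjuredPT-A in both mice, against 8.04% of the 3282 genes called neither way. Of the 734 lower genes, 458 (62.4%) fell below the median of the 16 clusters outside the proximal tubule in both mice, and 131 (17.8%) were the lowest of all 23, against 26.6% and 2.22% of uncalled genes. Most lower genes thus stood under the typical cluster outside the proximal tubule.

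With the nearest normal cluster of each mouse as the reference, 969 of 4872 genes were higher (19.9%) and 562 lower (11.5%). The 5 largest differences upward were those of *Polr2a* (3.03 in the control AAI and 3.07 in the h*KLF6*-OE AAI mouse), *Klf6* (2.63 and 2.61), the noncoding transcripts *Gm28153* (2.56 and 3.97) and *2900097C17Rik* (2.31 and 2.20), and *Gm27003* (2.43 and 2.18). The 5 largest downward were those of *Esrrg* (−2.60 and −3.14), *Zbtb20* (−2.97 and −2.58), *Ghr* (−4.00 and −2.52), *Snx29* (−2.49 and −2.57) and *Pde4d* (−3.20 and −2.35). Each of them was also called with the mean of the 5 clusters as the reference.

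**Figure D3:**
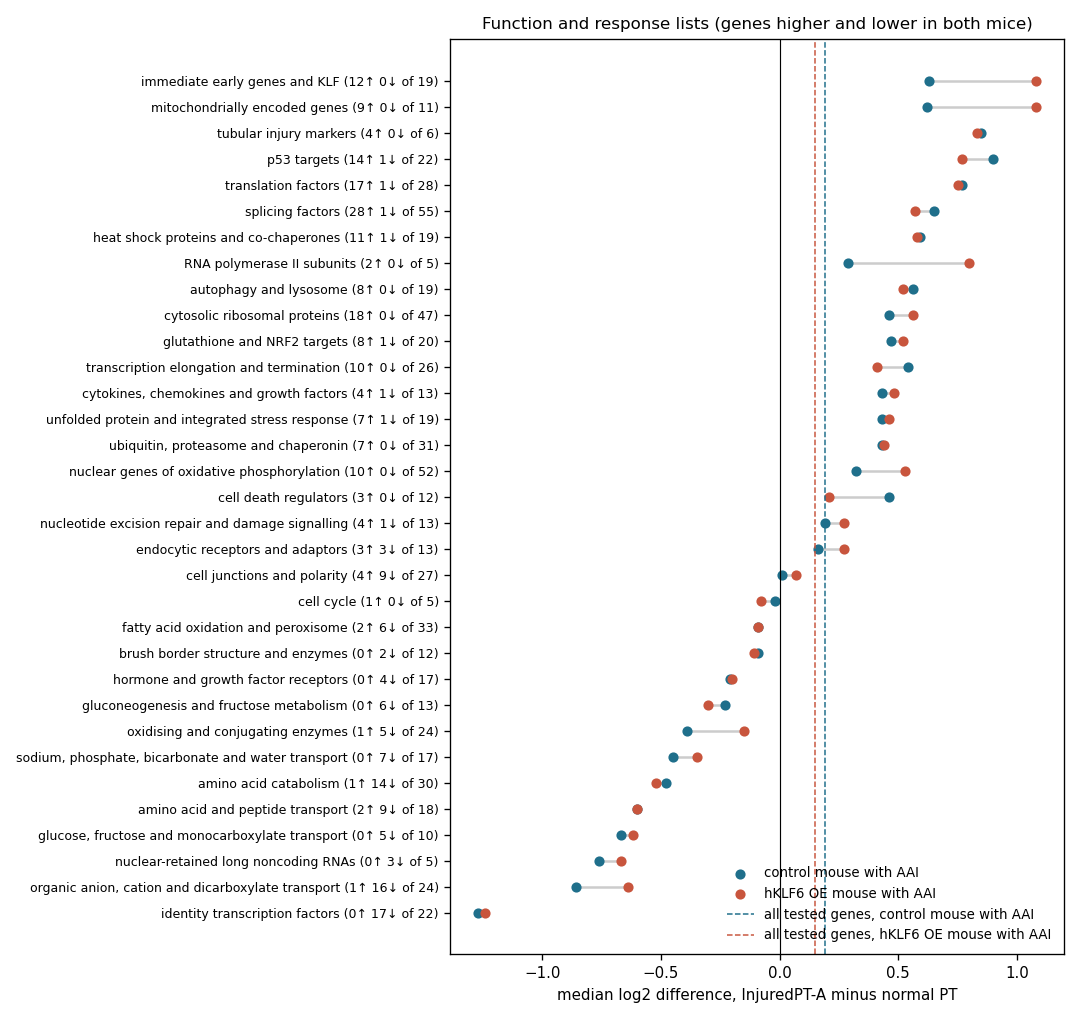
Median log2 difference of InjuredPT-A from the normal proximal tubule in the control AAI and the h*KLF6*-OE AAI mouse for 33 gene lists, with the counts of members higher, lower and tested. Carrier and transcription factor lists lie to the left of 0 and RNA processing, translation and stress lists to the right, and the dashed lines give the median of all tested genes (0.19 and 0.15).

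Transport genes were lower in part, against 14.7% of all tested genes, and the counts depended on the reference. Of 17 tested genes of sodium, phosphate, bicarbonate and water transport, 7 were lower and 0 higher, with a median of −0.45 in the control AAI and −0.35 in the h*KLF6*-OE AAI mouse. Against the nearest normal cluster 4 were lower and 1 higher. *Slc4a4*, the basolateral sodium bicarbonate cotransporter, had a value of 4.26 against 16.96 and 5.76 against 14.9, *Pdzk1*, a scaffold of apical transporters, 1.73 against 6.61 and 2.29 against 7.82, and *Slc9a3*, the apical sodium hydrogen exchanger, 0.534 against 1.69 and 0.686 against 1.96. Not every member was reduced. *Atp1b1*, the beta subunit of the sodium pump, was called neither way, at 9.96 against 7.12 and 13.8 against 7.27, and the water channel *Aqp1* was at 2.85 against 1.85 and 1.96 against 1.71.

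Sugar and amino acid carriers followed. Of 10 tested genes of glucose, fructose and monocarboxylate transport, 5 were lower and 0 higher (medians −0.67 and −0.62), among them *Slc5a2*, the glucose cotransporter SGLT2 of the early tubule, at 0.889 against 2.29 and 0.989 against 2.38, and *Slc16a9*, a monocarboxylate carrier, at 1.14 against 7.28 and 1.36 against 7.31. Against the nearest normal cluster 2 were lower and 1 higher, and the median in the control AAI mouse turned to 0.34. Of 18 tested genes of amino acid and peptide transport, 9 were lower and 2 higher (medians −0.60 and −0.60), and against the nearest normal cluster 3 of 15 were lower and 2 higher. *Slc7a7* and *Slc3a1*, subunits of basolateral and apical exchangers of basic amino acids, were at 0.862 against 4.74 and 1.42 against 3.65 in the control AAI mouse and at 0.994 against 4.99 and 1.30 against 3.65 in the h*KLF6*-OE AAI mouse. The 2 higher genes encode partner proteins of such carriers, *Slc3a2* (1.87 against 0.582, and 1.42 against 0.550) and *Tmem27*, also called collectrin (7.81 against 4.11, and 7.47 against 3.26).

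Of 24 tested genes of organic anion, cation and dicarboxylate transport, 16 were lower and 1 higher (medians −0.86 and −0.64), and against the nearest normal cluster 14 of 23 were lower and 1 higher. *Slc13a1*, the sulfate cotransporter, had a value of 4.80 against 26.7 in the control AAI and 5.996 against 24.7 in the h*KLF6*-OE AAI mouse, and *Slc17a3*, an apical urate and anion exporter, 3.34 against 13.3 and 2.14 against 8.36. *Abcc2*, the apical efflux pump MRP2, was at 5.15 against 14.9 and 6.81 against 16.5. *Slc22a6*, which encodes OAT1, the basolateral carrier through which organic anions including AAI enter the cell, was the 1 higher gene, at 3.59 against 1.77 and 6.09 against 1.35. Its neighbour in function *Slc22a8* (OAT3) was not called, at 1.39 against 2.19 and 1.58 against 1.28.

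Endocytosis genes were called in both directions. Of 13 tested members 3 were lower and 3 higher, near the 14.7% and 19.8% of all tested genes. The lower genes were the receptors of filtered protein, *Lrp2* (megalin, 3.45 against 17.7 and 4.37 against 18.7) and *Cubn* (cubilin, 1.30 against 10.2 and 1.42 against 7.57), and their adaptor *Dab2* (7.98 against 42.0 and 6.23 against 32.0). The higher genes were the Rab GTPases *Rab7* (2.73 against 0.931 and 2.31 against 1.02), *Rab5a* (differences 0.71 and 0.81) and *Rab11a* (0.60 and 0.55). The smaller partners *Amn* and *Lrpap1* were called neither way, at 1.00 against 0.641 and 1.78 against 1.48 in the control AAI mouse and 1.18 against 0.804 and 2.00 against 1.18 in the h*KLF6*-OE AAI mouse. Brush border genes were lower in a share near the 14.7% of all tested genes. Of 12 tested, 2 were lower and 0 higher, namely the protease gene *Mep1b* (0.408 against 2.21 and 0.338 against 1.96) and *Eps8*, an actin capping protein of microvilli (1.96 against 4.93 and 1.48 against 4.78), while *Vil1*, which encodes villin, stood at 0.699 against 0.666 and 0.765 against 0.675.

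Metabolic lists differed in how many members were lower, against 14.7% of all tested genes. Of 13 tested genes of gluconeogenesis and fructose metabolism, 6 were lower and 0 higher (medians −0.23 and −0.30). *Gk*, glycerol kinase, had a value of 3.75 against 22.2 and 5.31 against 21.9, and the gluconeogenic enzymes *Fbp1*, *G6pc* and *Pck1* were at 2.46 against 5.23, 1.22 against 2.98 and 2.31 against 4.77 in the control AAI mouse. In the h*KLF6*-OE AAI mouse they were at 2.92 against 5.98, 0.965 against 2.54 and 5.10 against 10.0.

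Of 33 tested genes of fatty acid oxidation and the peroxisome, 6 were lower and 2 higher (medians −0.09 and −0.09), which is near the share of all tested genes. The list's regulator *Ppara* was at 1.43 against 10.7 in the control AAI and 1.30 against 8.02 in the h*KLF6*-OE AAI mouse, and *Slc27a2*, a fatty acid transport protein, at 4.84 against 17.8 and 8.52 against 17.97. The core enzymes moved less. *Cpt1a*, the carnitine palmitoyltransferase of the outer mitochondrial membrane, was at 1.29 against 1.38 and 1.14 against 1.37, and *Acadm*, the medium chain dehydrogenase, at 3.05 against 2.41 and 3.37 against 2.33. *Pdk4*, a kinase that inhibits pyruvate dehydrogenase, was higher, at 1.66 against 0.140 and 1.44 against 0.0659.

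Of 30 tested genes of amino acid catabolism, 14 were lower and 1 higher (medians −0.48 and −0.52), led by *Keg1*, a kidney-expressed acyltransferase-like gene, at 13.3 against 70.6 in the control AAI mouse (differences −2.33 and −2.09). Of 24 tested oxidising and conjugating enzymes, 5 were lower and 1 higher (medians −0.39 and −0.15), again near that share. The higher gene was *Nat8*, an N-acetyltransferase of mercapturate formation, at 3.29 against 1.43 and 3.96 against 0.720.

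Energy genes were not lower. Of 52 tested nuclear genes of oxidative phosphorylation, 10 were higher and 0 lower (medians 0.32 and 0.53), and this number of higher genes is near the 19.8% of all tested genes. Among them was *Cox8a*, a cytochrome oxidase subunit, at 4.03 against 2.04 and 5.13 against 1.85. Of 11 tested mitochondrially encoded genes, 9 were higher and 0 lower (medians 0.62 and 1.08), with *mt-Co1*, the catalytic subunit of that oxidase, at 46.9 against 25.4 in the control AAI and 74.9 against 30.1 in the h*KLF6*-OE AAI mouse. Against the uninjured h*KLF6*-OE mouse the second median was −0.09. The share of mitochondrial transcripts, given above, moved with these genes, and its part in the result was not tested.

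The list of identity transcription factors, which also holds the receptor gene *Lrp1b*, was the most reduced. Of 22 tested members, 17 were lower and 0 higher (medians −1.27 and −1.24), against 14.7% of all tested genes lower. *Esrrg*, an orphan receptor of oxidative metabolism, had a value of 3.17 in the control AAI and 5.28 in the h*KLF6*-OE AAI mouse, against 24.2 to 55.5 and 17.9 to 57.2 in the normal clusters, and *Thrb*, a thyroid hormone receptor, 1.49 against 10.9 and 2.04 against 11.25. *Hnf4a*, a hepatocyte nuclear factor of the proximal tubule, was lower too, at 1.04 against 2.44 and 1.40 against 2.53, as was *Pax8*, a kidney lineage factor, at 0.971 against 2.73 and 0.753 against 3.20. *Maf* was not reduced, at 4.32 against 4.19 and 5.21 against 4.03.

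Surface genes were mixed, beside 14.7% of all tested genes lower and 19.8% higher. Of 17 tested hormone and growth factor receptors, 4 were lower and 0 higher (medians −0.21 and −0.20), among them *Ghr*, the growth hormone receptor, and *Igf1r*, the receptor of its mediator IGF-1 (2.62 against 16.3 and 3.51 against 19.9). Of 27 tested junction and polarity genes, 9 were lower and 4 higher (medians 0.01 and 0.07). *Pkhd1*, the fibrocystin gene of polycystic kidney disease, was at 3.01 against 19.5 and 4.55 against 25.7, while *Cdh1*, which encodes E-cadherin, was higher at 3.16 against 0.677 and 2.33 against 0.617, and its partner *Ctnnb1*, beta-catenin, at 3.05 against 0.783 and 2.34 against 0.895.

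Genes of transcription and RNA processing were higher as lists, beside 19.8% of all tested genes. Of 26 tested genes of transcription elongation and termination, 10 were higher and 0 lower (medians 0.54 and 0.41). *Hexim1*, which holds the elongation factor P-TEFb inactive, was at 1.84 against 0.188 in the control AAI and 2.50 against 0.250 in the h*KLF6*-OE AAI mouse, and *Ccnt1*, the cyclin of that factor, at 3.50 against 1.16 and 3.29 against 1.09. Of the other RNA polymerase II subunits only *Polr2l* was called, at 0.701 against 0.0475 and 0.817 against 0.0400. The list held 5 tested members of 13, so that most subunits were below 0.5.

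The next lists are also to be read beside the 19.8% of all tested genes that were higher. Of 55 tested splicing factors, 28 were higher and 1 lower (medians 0.65 and 0.57). *Tra2a*, a splicing activator, had a value of 20.7 and 15.96, against 2.48 to 3.08 and 2.39 to 3.29 in the normal clusters, and the exception was *Luc7l2*, a U1-associated factor, at 3.60 against 8.25 and 4.96 against 8.58. Of 28 tested translation factors, 17 were higher and 1 lower (medians 0.77 and 0.75), with *Eif3a* at 4.48 against 1.15 and 4.05 against 1.11. The lower one was *Eif4g3*, a long gene of 215 kb, at 1.54 against 4.55 and 1.49 against 3.96. Cytosolic ribosomal protein genes were higher in 18 of 47 tested and lower in 0 (medians 0.46 and 0.56).

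Damage response lists were led by p53 targets, with 14 of 22 tested higher and 1 lower (medians 0.90 and 0.77). Of all tested genes 19.8% were higher and 14.7% lower. Beside *Cdkn1a* and *Trp53inp1*, *Zmat3*, an RNA-binding p53 target, was at 3.50 against 0.563 and 3.20 against 0.790, *Ccng1*, cyclin G1, at 6.07 against 1.46 and 5.47 against 1.43, and *Pmaip1*, the death gene Noxa, at 1.91 against 0.190 and 1.88 against 0.185. *Mdm2*, the ligase that degrades p53, was not called, at 9.32 against 4.503 and 6.77 against 4.86, nor was *Bax*, at 0.663 against 0.459 and 0.710 against 0.465. Of 13 tested genes of nucleotide excision repair and damage signalling, 4 were higher and 1 lower (medians 0.19 and 0.27). The higher ones included *Polk*, a polymerase that copies past bulky adducts, at 3.68 against 1.27 and 4.05 against 1.55, and *Ercc5*, an incision nuclease, at 2.00 against 0.621 and 1.87 against 0.793.

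Protein quality lists varied beside the 19.8% of all tested genes that were higher. Heat shock proteins and co-chaperones were higher in 11 of 19 tested and lower in 1 (medians 0.59 and 0.58), with *Dnajb4* at 2.87 against 0.442 and 3.03 against 0.434. The unfolded protein and integrated stress list was higher in 7 of 19 and lower in 1 (0.43 and 0.46), with *Atf4*, its effector, at 3.72 against 0.630 and 7.62 against 0.593. Proteasome and chaperonin genes were higher in 7 of 31 and lower in 0 (0.43 and 0.44), near that share. Autophagy and lysosome genes were higher in 8 of 19 and lower in 0 (0.56 and 0.52), led by *Vmp1*, a membrane protein of autophagosome formation, at 15.9 against 3.36 and 19.5 against 3.68. Glutathione and NRF2 targets were higher in 8 of 20 and lower in 1 (0.47 and 0.52), with *Nfe2l2* itself at 5.46 against 1.99 and 3.78 against 1.83, and *Fth1*, the ferritin heavy chain, at 27.5 against 15.5 and 25.2 against 11.6. *Gclc* was called neither way, and *Gss*, the next enzyme of glutathione synthesis, was lower at 1.90 against 3.51 and 1.84 against 3.60.

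Immediate early and KLF genes were higher in 12 of 19 tested and lower in 0 (medians 0.63 and 1.08). The share of all tested genes that were higher was 19.8%. Next to *Klf6* stood *Mafk*, a small MAF partner of NRF2, at 3.48 against 0.174 in the control AAI and 3.24 against 0.143 in the h*KLF6*-OE AAI mouse, and *Zfp36l1*, which destabilises mRNA, at 6.17 against 0.993 and 6.27 against 0.873. Of 29 tubular injury markers 6 reached the minimum, and 4 of those were higher. They included *Plin2*, a lipid droplet coat, at 3.06 against 0.619 and 1.499 against 0.421, and *Icam1*, an adhesion molecule, at 2.12 against 0.177 and 1.14 against 0.170. Several other injury markers of the list were at or near 0 in InjuredPT-A, with *Krt20* at 0.0440 and 0.0571, *Vcam1* at 0.0360 and 0.0426, and *Sox9* at 0.00936 and 0.0680. *Krt20* was higher in InjuredPT-B, at 0.245 and 1.34.

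Of 13 tested cytokines, chemokines and growth factors 4 were higher and 1 lower, with *Nfkbia*, an inhibitor of NF-kB, at 2.80 against 0.340 and 1.64 against 0.752 and the growth factor *Fgf1* at 0.593 and 1.49, against 2.33 to 22.3 and 2.75 to 33.8. Of 12 tested cell death regulators 3 were higher and 0 lower (medians 0.46 and 0.21), with *Cflar*, which blocks caspase-8, at 6.05 against 3.05 in the control AAI mouse. Against the nearest normal cluster 0 of the 12 were called. Of all tested genes 19.8% were higher, and the cytokine, cell death and cell cycle counts lie near or little above that share. Of 29 cell cycle genes 5 reached the minimum, and 1 was higher, *Mcm7*, a subunit of the replicative helicase, at 1.65 against 0.119 and 1.90 against 0.0658. *Mki67* and *Top2a*, which mark dividing cells, were at 0.0243 and 0.0160 in the control AAI mouse and at 0 in the h*KLF6*-OE AAI mouse. Of the 5 tested nuclear-retained noncoding RNAs, 0 were higher and 3 lower, while *Malat1* stood at 798 and 999 and *Neat1* at 13.1 against 16.7 and 14.9 against 21.3. Over all lists 338 members were not tested because they were below the minimum, so no count here covers a whole list.

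The largest differences did not come from the lists alone. Upward, *Rcc1*, a guanine nucleotide exchange factor of chromatin, had a value of 5.42 and 5.31, against 0.385 to 0.650 and 0.295 to 0.707 in the normal clusters. *Rcc1* overlaps *Snhg3* and 2 small nucleolar RNA genes on its own strand, and *Gm3448* overlaps *Tcte3* on its own strand. Reads in those overlaps cannot be told apart by strand. *Gm28153* and *Gm27003* overlap protein-coding genes, *Crispld1* and *Gabpb1*, on the opposite strand only. The sources used here do not state how the counting used strand, and its part in these values was not tested. Noncoding genes made up 62 of 981 higher genes with an annotation (6.32%, of which 35 antisense and 26 lincRNA), 23 of 728 lower genes (3.16%) and 126 of 4969 tested genes (2.54%).

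Downward, *Zbtb20*, a transcriptional repressor, was at 13.5 in the control AAI and 16.03 in the h*KLF6*-OE AAI mouse, against 64.4 to 135 and 48.3 to 113 in the normal clusters and 65.2 and 46.9 in InjuredPT-B. *Ghr* stood at 9.72 and 12.8, against 36.5 to 240 and 32.7 to 199, *Nhs*, an actin regulator, at 1.45 and 1.86, against 9.35 to 27.0 and 7.87 to 24.1, and *Frmd4b*, a scaffold of cell polarity, at 2.16 and 2.28, against 10.96 to 21.9 and 11.5 to 19.9. *Lrmda* was at 1.21 and 2.40, against 7.51 to 19.7 and 10.3 to 32.5. InjuredPT-A did not overlap the normal clusters of the same mouse in any of these genes. *Zbtb20* and *Snx29* had their lowest value of all 23 clusters here in both mice.

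The lower genes were long. Reads in introns were counted in these nuclei, so that a value holds unspliced as well as spliced RNA. Genomic span in the reference annotation (GRCm38) was held by 4969 of the 5008 tested genes, of which 1994 were shorter than 30 kb (40.1%, exact 95% binomial interval over genes 38.8% to 41.5%) and 1085 longer than 100 kb (21.8%, 20.7% to 23.01%). Of the higher genes 712 of 981 were shorter than 30 kb (72.6%, 69.7% to 75.4%) and 33 were longer than 100 kb (3.36%). Of the lower genes 488 of 728 were longer than 100 kb (67.0%, 63.5% to 70.4%) and 58 were shorter than 30 kb (7.97%). The intervals cover counting error only and treat genes as independent, which they are not. With the nearest normal cluster as reference the shares were 74.9% short among higher and 67.7% long among lower genes.

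The difference followed span in steps. Genes shorter than 3 kb differed by a median of 0.48 in the control AAI and 0.64 in the h*KLF6*-OE AAI mouse, and those of 3 to 10 kb 0.51 and 0.60. From 10 to 30 kb the median was 0.44 and 0.40, from 30 to 100 kb 0.12 and 0.03, from 100 to 300 kb −0.46 and −0.48, and above 300 kb −1.07 and −1.01. In the last bin 72.1% of 190 genes were lower and 4.74% were higher. InjuredPT-B had medians between −0.01 and 0.16 in every bin up to 300 kb and −0.47 and −0.41 beyond.

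**Figure D4:**
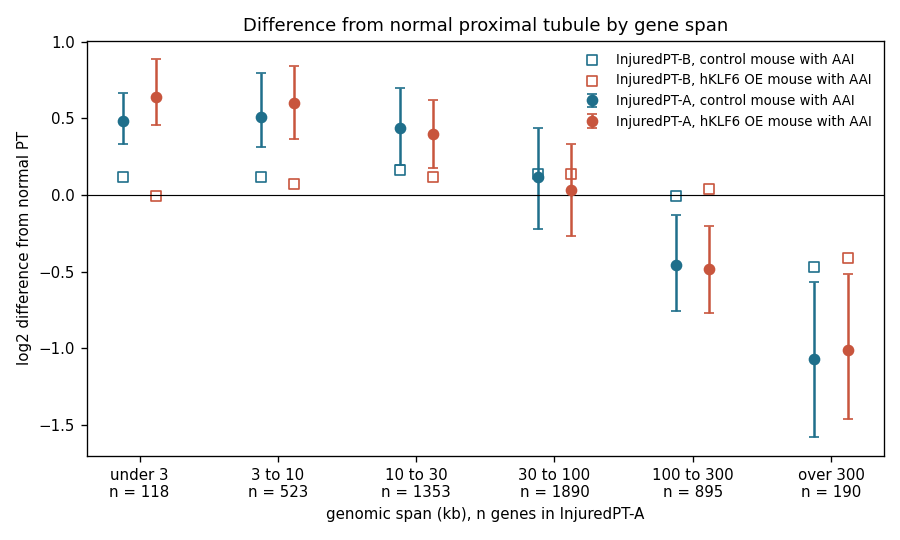
Median log2 difference from the normal proximal tubule of the same mouse by genomic span of the gene (kb), for InjuredPT-A with interquartile bars and for InjuredPT-B as open squares, in both AAI mice. In InjuredPT-A the median falls from 0.48 and 0.64 in the shortest bin to −1.07 and −1.01 in the longest.

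The gap between the median of genes shorter than 30 kb and that of genes longer than 100 kb was 0.96 in the control AAI and 0.95 in the h*KLF6*-OE AAI mouse, which ranked first of the 23 clusters compared with the same normal mean. MC followed with 0.35 and 0.43, and InjuredPT-B had 0.21 and 0.12. The gap had the same sign in all 4 bands of expression in the normal clusters. Short genes had medians of 0.48 and 0.46 where the normal value was under 1 and 0.43 and 0.33 where it was over 5, and long genes −0.26 and −0.28 under 1 and −1.61 and −1.52 over 5, where 90.2% of 132 were lower. Among genes of the tubule function lists, 27 of 155 shorter than 30 kb were higher and 19 lower, 5 of 110 between 30 and 100 kb were higher and 46 lower, and 0 of 55 longer than 100 kb were higher and 37 lower.

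The lists differed in span, but their medians did not follow it throughout. The median member spanned 132 kb among the identity transcription factors (median differences −1.27 and −1.24) and 8.40 kb among the immediate early genes (0.63 and 1.08), while it spanned 113 kb among the junction genes (0.01 and 0.07), 42.0 kb among the organic ion carriers (−0.86 and −0.64), 36.2 kb among the elongation factors (0.54 and 0.41) and 20.8 kb among the nuclear-retained RNAs (−0.76 and −0.67). Within the 198 proximal tubule genes the median share kept was 37.7% and 37.8% for 34 genes shorter than 30 kb, 33.9% and 33.9% for 69 genes of 30 to 100 kb, and 21.2% and 23.4% for 94 genes longer than 100 kb. Single tubule genes of moderate span were among the lower ones too, such as *Slc5a12* (50.5 kb) and *Keg1* (24.1 kb). What span and function each contributed cannot be told apart where long genes make up most of a list.

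The 2 AAI mice were then compared within InjuredPT-A. Of 5253 genes tested, 108 were higher by at least 0.5 on the log2 scale in the h*KLF6*-OE AAI mouse (2.06%) and 85 were lower (1.62%), with a median difference of −0.05. Together they made up 3.67% of the genes tested, against 1.49% to 3.39% in the 5 normal clusters of the same mice, and 4.3% in InjuredPT-B (92 higher and 112 lower among 4744), so a raised share was not particular to InjuredPT-A. The number of nuclei behind each column is not known, and its part in these shares was not tested. Of the 108 genes, 39 lay above the differences of all 5 normal clusters by at least 0.5, and of the 85 genes 15 lay below by as much. The genes were chosen for a large difference in InjuredPT-A, so these counts are a description. Since the normal clusters and InjuredPT-A come from the same pair of mice, this shows where InjuredPT-A differed from its neighbours, and not an effect of the transgene.

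**Figure D5:**
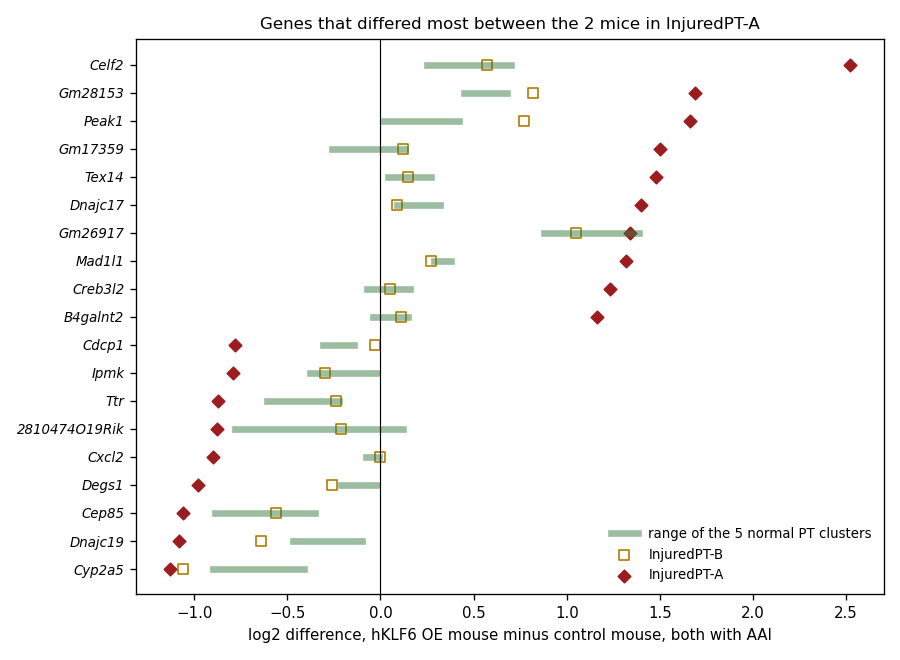
Log2 difference of the h*KLF6*-OE AAI mouse minus the control AAI mouse in InjuredPT-A (red diamonds) for the 10 highest and 9 of the 10 lowest genes, with the same difference in InjuredPT-B (open squares) and its range over the 5 normal proximal tubule clusters (green bars). *Celf2* at 2.52 lies beyond a normal range of 0.25 to 0.70, and *Dnajc19* at −1.08 beyond −0.47 to −0.10.

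*Celf2*, an RNA-binding regulator of splicing, had a value of 0.635 in the control AAI and 8.40 in the h*KLF6*-OE AAI mouse, a difference of 2.52, against 0.25 to 0.70 in the normal clusters and 0.57 in InjuredPT-B. *Gm28153* was at 10.8 and 37.1 (1.69, against 0.45 to 0.68), *Peak1*, a pseudokinase of the cytoskeleton, at 1.16 and 5.84 (1.66, against 0.02 to 0.42), *Mad1l1*, a spindle checkpoint gene, at 7.04 and 19.04 (1.32, against 0.29 to 0.38), and *Creb3l2*, a transcription factor of the secretory pathway, at 1.56 and 4.98 (1.23, against −0.07 to 0.16). *Gm17359*, *Tex14* (1.48), *Dnajc17* (1.40) and *B4galnt2* (1.16) completed the list with *Gm26917*, whose difference of 1.34 was within the range of the normal clusters (0.88 to 1.39).

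Of the stress lists, the immediate early genes held the most members higher in the h*KLF6*-OE AAI mouse. Among all genes tested between the mice 2.06% were higher and 1.62% lower. Of 24 immediate early and KLF genes tested, 7 were higher and 0 lower, with a median of 0.25 against −0.03 to 0.02 in the normal clusters. *Ier2* was at 1.07 and 3.48, *Zfp36*, which destabilises mRNA, at 3.20 and 7.70, *Egr1* at 2.12 and 5.40, and *Jun* at 1.55 and 3.65. *Atf4* was at 3.72 and 7.62 (0.87, against −0.17 to 0.09 in the normal clusters and −0.07 in InjuredPT-B), and *Cdkn1a*, with the values given above, differed by 0.82, against −0.24 to 0.19. Their lists did not move with them, since 1 of 20 genes of the unfolded protein and integrated stress list (median 0.03), 1 of 26 p53 targets (median −0.08) and 1 of 21 heat shock genes were higher and 0 lower, and of 21 NRF2 targets 0 were higher and 2 lower. The value assigned to mouse *Klf6* did not differ by 0.5 (−0.14), nor did that of *Polr2a* (−0.06). The human *KLF6* transgene was not read separately, so the total KLF6 level of the 2 mice cannot be compared here.

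Some tubule genes were also higher in that mouse. *Slc34a1*, the phosphate cotransporter NaPi-IIa, was at 13.4 in the control AAI and 22.8 in the h*KLF6*-OE AAI mouse, a difference of 0.73, against −1.09 to 0.10 in the normal clusters and −0.64 in InjuredPT-B. *Slc27a2* was at 4.84 and 8.52 (0.71, against −0.32 to 0.18) and *Slc22a6* at 3.59 and 6.09 (0.63, against −0.41 to −0.10). The mitochondrial share (1.84% and 2.34%) and the summed thick ascending limb markers (13.9 and 18.6) were higher in the same mouse, and their part in these differences was not tested. Of the 108 higher genes 39 were longer than 100 kb (36.1%, against 17.98% of the genes tested), and of 83 lower genes with a span 4 were (4.82%).

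Lower in the h*KLF6*-OE AAI mouse were *Cyp2a5*, a cytochrome P450, at 2.35 and 0.534 (−1.13, against −0.90 to −0.41 in the normal clusters), *Dnajc19*, a mitochondrial import gene, at 5.56 and 2.10 (−1.08, against −0.47 to −0.10), *Cep85*, a centrosomal gene, at 4.02 and 1.40 (−1.06, against −0.89 to −0.35), and *Degs1*, the ceramide desaturase, at 6.92 and 3.00 (−0.98, against −0.21 to −0.02). *Ipmk*, an inositol phosphate kinase, was at 3.92 and 1.84, and *Cdcp1* at 6.23 and 3.21. *Ttr*, transthyretin, was at 0.825 and listed at 0.

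Injury markers and cytokines moved in both directions, beside 2.06% higher and 1.62% lower among all genes tested between the mice. Of 29 injury markers only 6 were tested, of which 3 were lower and 1 higher (median −0.40). *Plin2* was at −0.70, *Icam1* at −0.54 and *Myh9*, nonmuscle myosin, at −0.50. Of 14 cytokines, chemokines and growth factors 4 were lower and 2 higher (median −0.06, near the −0.05 of all genes). The neutrophil chemokines *Cxcl2* and *Cxcl1* differed by −0.90 (1.49 and 0.332, against −0.08 to −0.01 in the normal clusters) and −0.72 (against −0.07 to 0.69), and the NF-kB regulators *Nfkbiz* and *Nfkbia* by −0.60 and −0.52. *Vegfa*, a growth factor of endothelium, differed by 0.90 and *Fgf1* by 0.64. The antioxidant genes *Nqo1* (−0.57) and *Txnrd1* (−0.54) and the death regulators *Bid* (−0.59) and *Bcl2l1* (−0.53, against 0.28 to 0.61 in the normal clusters) were also lower.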

How the data were processed

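Nuclei of kidney cortex from 4 mice were sequenced as snRNA-seq, 1 mouse for each of the groups Control, Control_AAI, OE and OE_AAI, in 1 technical batch. Per the submitters' processing notes the authors used Cell Ranger 3.1.0 and Seurat 4.3 with mm10. Per the study's methods, nuclei with fewer than 200 or more than 6000 genes or over 10% mitochondrial transcripts were left out, reads were counted on a pre-mRNA reference, which includes introns, and no step against doublets is named. The deposited signal values are the authors' normalized expression averaged over the nuclei of 1 cluster in 1 mouse. The function that made the averages is not given in the sources used here, and the unit was taken from the columns, each of which (92 of 92) sums to 10000. Intronic reads weigh long genes more, and pooled nuclei carry transcripts of other cells.

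Of 19632 gene names 23 had turned into dates and were left out, leaving 19609. Differences were taken on log2(value + 1) with a threshold of 0.5 and a minimum value of 0.5. No p-value was computed, since nuclei and genes are not replicates. Gene spans came from GENCODE M21 (GRCm38), held by 98.6% of gene names. Promoters came from RefSeq GRCm38.p6, and fewer than 80% of the called genes matched an entry, so the share of promoters with a motif among called genes was void. The genes named were the 4 markers, the 10 largest differences each way from the normal clusters (by the smaller of the 2 mice) and between the mice, the 5 largest from the nearest cluster, the extremes of the segment genes, and of each of 33 lists the members with the largest differences and those needed to describe its roles. Markers of injury and of dividing cells at or near 0, and the members of the 198 proximal tubule genes, were picked with their values in view. The members and lists were chosen with earlier results of these data known. Alternatives were another pseudocount, minimum, threshold, reference and centring. The 2 uninjured columns of the cluster, with few nuclei, served as context only. Work was done in Python 3.11.15 with pandas 2.3.3, numpy 2.4.6, matplotlib 3.10.9 and scipy 1.17.1. A few genes that the rule named are not reported here.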

Additional observations from a re-analysis of the deposited data

How the results depend on the processing

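The count of higher genes (992) became 2001 with a pseudocount of 0.1, 336 with a minimum value of 2, 2167 and 192 with thresholds of 0.2 and 1, and 555 when centred on the median, and the count of lower genes (734) became 1214, 463, 1350 and 264 under the first 4 of these and 1081 when centred. Between the mice, the 108 genes higher in hKLF6-OE AAI became 456, 70, 689 and 18 under the same 4 settings, and the 85 lower genes 693, 54, 1174 and 3. The nearest normal cluster had an r of 0.546, 0.823 and 0.533 in the control AAI mouse (pseudocount 0.1, segment genes alone, uninjured mouse) and of 0.580 in the hKLF6-OE AAI mouse (uninjured mouse). Median differences of S1-S2 genes from their own segment moved to −2.87 and −2.42 (control AAI and hKLF6-OE AAI mouse) with a pseudocount of 0.1 and to −2.73 and −2.10 for the 6 genes chosen at a threshold of 2, and those of S3 genes to −2.32 and −2.17, and to −2.60 and −1.95 for 4 genes. The share of higher genes shorter than 30 kb (72.6%) moved to 75.4% with a threshold of 1 and 61.3% with a minimum of 2, and that of lower genes longer than 100 kb (67.0%) to 74.5% with a threshold of 1 and 63.0% when centred. Of 458 alternatives to 66 list medians 413 moved by less than 0.5 on the log2 scale, 43 moved further and 2 reversed, the glucose, fructose and monocarboxylate list in the control AAI mouse (−0.67, and 0.34 against the nearest cluster) and the mitochondrially encoded genes in the hKLF6-OE AAI mouse (1.08, and −0.09 against the uninjured mouse). The causes were not tested. No filter, the PT-S3 clusters, the nearest cluster and the uninjured mouse as reference gave 1004, 1032, 969 and 998 higher and 734, 703, 562 and 687 lower genes. No paired analysis was possible because each condition has 1 mouse, and no replicate could be left out. Depth and numbers of nuclei are unknown, so no limit from counting could be given.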
